A study of Mus musculus with 11 samples.

Results

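The genes of the proteasome were examined in the gingival epithelium, the keratinocyte layer that covers the gums around the teeth, of Langerin-DTR mice. These mice express the diphtheria toxin receptor under the control of langerin, a lectin of Langerhans cells, so that diphtheria toxin (DT) kills the cells that carry it. All 11 mice had this genotype, were male per the methods, and were labelled by their injection: 5 received PBS and 6 received DT, each on postnatal days 17, 24 and 31. Epithelium was taken when they were 8 weeks old, so the libraries do not show the time of the injections themselves. Litters and collection dates are not given in the sources used here. The comparison asks how the epithelium of adult mice differed after Langerhans cells had been depleted around weaning. Members were the rows with values whose gene symbol starts with Psma, Psmb, Psmc, Psmd, Psme, Psmf or Psmg, leaving out pseudogenes and the immunoproteasome subunits Psmb8, Psmb9 and Psmb10. This gave 46 genes of 19170 rows with values. A further 2 genes, Psma8 and Psmb11, are listed without a value, and 5 pseudogene rows were left out by name.

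The proteasome is the protease that degrades proteins tagged with ubiquitin. Its 20S core is a barrel of stacked rings in which the alpha subunits form the gate and the beta subunits hold the active sites. The 19S cap binds the tagged protein, removes the ubiquitin with its lid and unfolds the protein with the ATPases of its base. Together cap and core make the 26S particle. Dedicated chaperones build the base and the core, other activators can replace the cap, and in cells exposed to interferon the immunoproteasome subunits take the place of the active beta subunits. In a stratified epithelium such as the gingiva, keratinocytes make up most of the cells and express the standard form.

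By role, the 46 members were 7 alpha subunits, 7 beta subunits, 9 subunits of the base, 8 of the lid, 3 chaperones of the base, 4 chaperones of the core, 6 activators and inhibitors, and 2 others. The 31 subunits of the rings, the base and the lid are called 26S subunits here. The 2 others, Psmc3ip and Psme3ip1, match the naming rule but encode proteins that are not known as proteasome subunits. Of the 46 genes, 45 averaged 10 or more normalized counts over the mice, and genes above this limit are called expressed here. The exception was Psme2b, a near-identical retrocopy of Psme2, for which reads could be split between both genes, and its means of 1.43 ± 1.16 after PBS (SD, n = 5) and 1.11 ± 0.965 after DT (SD, n = 6) are uncertain.

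A normalized count is the number of reads counted on a gene in a mouse divided by the size factor of that mouse. The reads recovered from the values amounted to between 17509328 and 24325513 per mouse. All 12 keratinocyte markers on a fixed list were expressed, with summed levels of 2752320 to 2889500 normalized counts after PBS and 2835680 to 3111840 after DT, as the label gingival epithelium implies. Cd207, which encodes langerin, had 15.8, 18.5, 32.2, 10.0 and 43.0 normalized counts in the PBS mice and 15.8, 18.3 and 21.6 as the lowest, median and highest of the DT mice. Its log2 fold change of DT over PBS was -0.19 and did not pass the test (limma, adjusted p = 0.853). The groups overlapped for Cd207, so that the level of this transcript at collection did not separate them. Skeletal muscle markers summed to 49.2 to 102.8 normalized counts over all mice. Fibroblast markers summed to 1252 to 1450 after PBS and 1109 to 1594 after DT. Dcn held most of this sum, with a mean of 1174 out of 1334 after PBS. The markers differed in direction: Dcn (log2 fold change 0.092) and Pdgfra (0.30) were higher after DT. Col1a1 (-0.53), Col1a2 (-0.42), Col3a1 (-0.48) and Lum (-0.63) were lower, and none passed the test (limma). Schwann cell markers summed to 1005 to 1104 after PBS and 988 to 1463 after DT, and Mbp held most of this sum (a mean of 1042 out of 1057 after PBS).

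The mouse PBS 4 stood apart for this complex. It had the lowest level of all 11 mice in 27 of the 31 26S subunits, or 87.1%, whereas it was the lowest in 17.3% of the 13477 expressed genes. Medians of groups of members are therefore given with and without PBS 4. So is each log2 fold change that its omission turned or moved by over 1.5 times, for the genes chosen by the rule under processing. For other genes, such as Psmb2 and Psmd14, the value without PBS 4 is not given.

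To show what lies in front of the genes whose levels are described below, 250 bases upstream of the transcription start are printed for 4 of them, from the RefSeq promoter table of GRCm38.p6. They were chosen because Psmd12, Psma6 and Psmd1 were among the members with the smallest p, and because Psmb5 encodes the chymotrypsin-like active site. Capitals mark the motifs found on either strand, which are the binding core of ETS factors (CCGGAAG) and the core of the antioxidant response element bound by Nfe2l1 and Nfe2l2 (TGACNNNGC). The Psmd12 window is chr11:107479278-107479527 on the plus strand and holds both motifs, each on the opposite strand. The Psma6 window is chr12:55398575-55398824 on the plus strand and holds the ETS core, while the other Psma6 window in the table holds neither motif. The Psmb5 window is chr14:54617996-54618245 on the minus strand and holds the antioxidant core. The Psmd1 window is chr1:86064369-86064618 on the plus strand and holds none of the motifs searched.
Psmd12: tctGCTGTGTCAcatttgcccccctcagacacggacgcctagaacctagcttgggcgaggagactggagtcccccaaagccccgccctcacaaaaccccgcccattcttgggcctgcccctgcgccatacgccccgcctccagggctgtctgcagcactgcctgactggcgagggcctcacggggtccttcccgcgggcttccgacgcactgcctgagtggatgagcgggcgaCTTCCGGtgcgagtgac
Psma6: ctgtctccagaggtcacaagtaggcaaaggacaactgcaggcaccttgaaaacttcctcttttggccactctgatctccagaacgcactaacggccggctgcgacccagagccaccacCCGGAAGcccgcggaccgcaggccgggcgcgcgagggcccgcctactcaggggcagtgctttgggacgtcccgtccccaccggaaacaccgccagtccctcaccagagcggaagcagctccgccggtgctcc
Psmb5: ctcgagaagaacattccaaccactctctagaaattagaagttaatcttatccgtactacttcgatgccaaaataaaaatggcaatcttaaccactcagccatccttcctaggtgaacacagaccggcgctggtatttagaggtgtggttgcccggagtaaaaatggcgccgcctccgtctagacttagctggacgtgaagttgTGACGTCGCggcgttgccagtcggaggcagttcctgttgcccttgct
Psmd1: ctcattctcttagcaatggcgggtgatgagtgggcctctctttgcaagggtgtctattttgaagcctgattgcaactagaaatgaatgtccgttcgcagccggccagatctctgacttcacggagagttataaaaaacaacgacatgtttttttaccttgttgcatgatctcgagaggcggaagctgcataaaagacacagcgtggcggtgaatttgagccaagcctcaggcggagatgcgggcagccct

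Among the members, 39 had a window in this table, giving 43 windows. The ETS core was present in 14 of 43 windows, or 32.6%, and in 6.91% of all 32851 windows and 13.1% of the 13147 windows of expressed genes. The antioxidant core was present in 5 windows, or 11.6%, those of Psmb5, Psmb6, Psmc6, Psmd12 and Psmd9, and in 10.2% of all windows and 11.7% of those of expressed genes. A CCAAT box (CCAAT) was found in 32.6% of member windows and 33.9% of all windows. The palindromic site of the respiratory factor NRF1, a protein distinct from Nfe2l1, was found in 6 member windows, 4.98% of all windows and 9.94% of those of expressed genes. No member window held the cAMP response element core TGACGTCA, which 1.55% of all windows held. These shares describe letters in a fixed window and were not tested, and the windows of a gene with several starts can overlap.

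Levels between genes were compared per kilobase of the main transcript in the GENCODE annotation. After PBS the beta subunits had a median of 1478 normalized counts per kb, with a range of 1128 to 2233. The base followed with a median of 1228 (737 to 2175), the alpha ring with 1120 (548 to 2050) and the lid with 895 (709 to 2531). These ranges overlap, and the subunits of a ring, which enter the particle in equal number, spanned 3.74-fold in the alpha ring and 1.98-fold in the beta ring.

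The chaperones among the members were far lower than the subunits they assemble. Chaperones of the core had a median of 191 normalized counts per kb (83.0 to 256) and those of the base 160 (115 to 170), all below the lowest 26S subunit. Pomp, the maturation factor of the core and not a member, was higher. It had 1158 normalized counts per kb, and 350.5 with the union of all exons as the length. Psme2, Psme3, Psme1 and Psme4, which encode activators, lay between 517 and 861, and Psmf1, the inhibitor PI31, at 113. The immunoproteasome subunits, which are not members, were lower still, with 34.4 ± 19.3 for Psmb8, 57.3 ± 18.8 for Psmb9 and 79.8 ± 27.1 for Psmb10 (SD, n = 5). With the union of all exons as the length, an alternative added after the data were seen, the medians of beta, base, alpha and lid were 952, 709, 586 and 519, and the beta ring spanned 3.69-fold. The order of single subunits within a ring thus depends on the length used, and it is not settled in the sources whether reads covered whole transcripts.

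**Figure D1:**
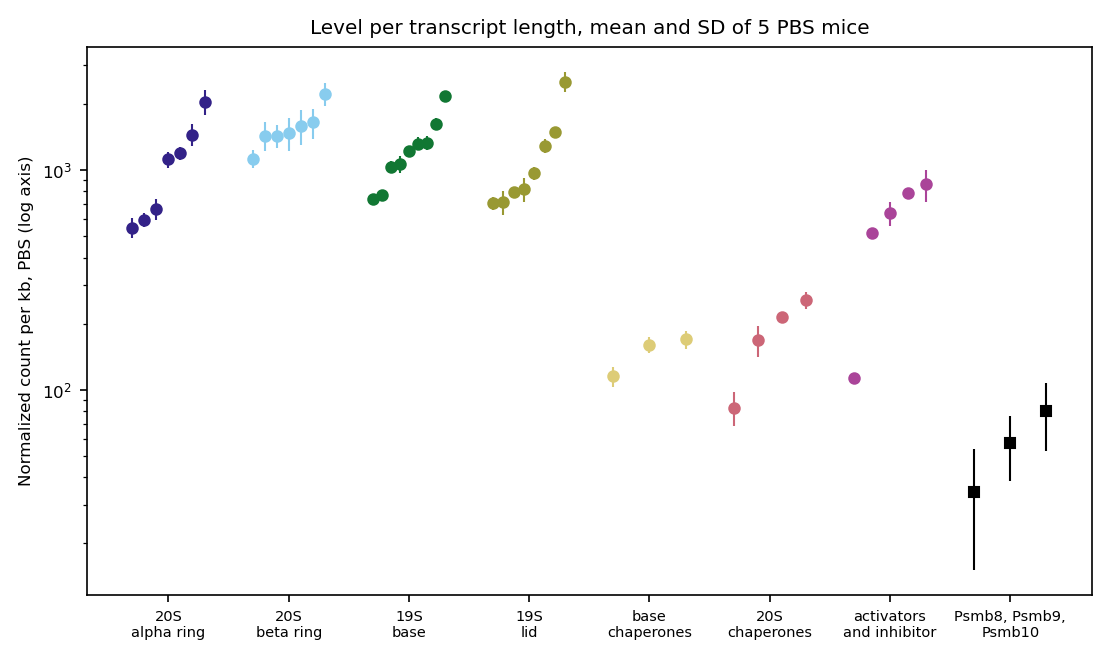
Normalized counts per kb of main transcript (log axis) after PBS, by role. Circles are expressed members except the 2 genes that are no subunits, squares are Psmb8, Psmb9 and Psmb10, in rising order within each role, with the SD of 5 mice as bars; the chaperones lie between 83.0 and 256 and every 26S subunit lies above 548.

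After DT, no proteasome gene passed the test against PBS at an adjusted p of 0.1 (limma, 0 of 46), where 107 of all 19170 genes, or 0.558%, did, 60 of them (0.313%) in the higher direction. The log2 fold changes were small and mostly positive: 40 members were higher and 6 lower in the mean after DT. Among the 45 expressed members, the median log2 fold change was 0.084 and 88.9% were positive. Over all 13477 expressed genes the median was 0.0022 and 50.7% were positive, and over the 3490 genes within the range of levels of the 26S subunits the median was 0.026 and 62.5% were positive. Most 26S subunits were lowest in the same mouse, as the heat map of the expressed members shows, so their signs are not independent. Without PBS 4 the median of the members was 0.049 and 80.0% were positive. The labels give the RNA as that of gingival epithelium and the study's text as that of epithelial cells, and in such bulk samples fewer cells of a type and less RNA per cell cannot be told apart.

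At an unadjusted p under 0.05, 5 members were higher after DT and none was lower (limma). These were Psmd12, Psmb1, Psma6, Psmd7 and Psmd1, of which the smallest adjusted p was 0.291. Of all genes, 11.5% passed this unadjusted threshold, 5.31% in the higher direction, and of genes at the level of the 26S subunits 11% passed it in the higher direction. All 5 were among the 31 26S subunits, a share not far above that of genes at their level. The count, which was added after the data were seen, depended on single mice: it was 1 without PBS 4, 3 without PBS 1, 12 without PBS 3, 16 without PBS 5 and 2 without DT 5. No member had groups that did not overlap, where 1.65% of all genes had.

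**Figure D2:**
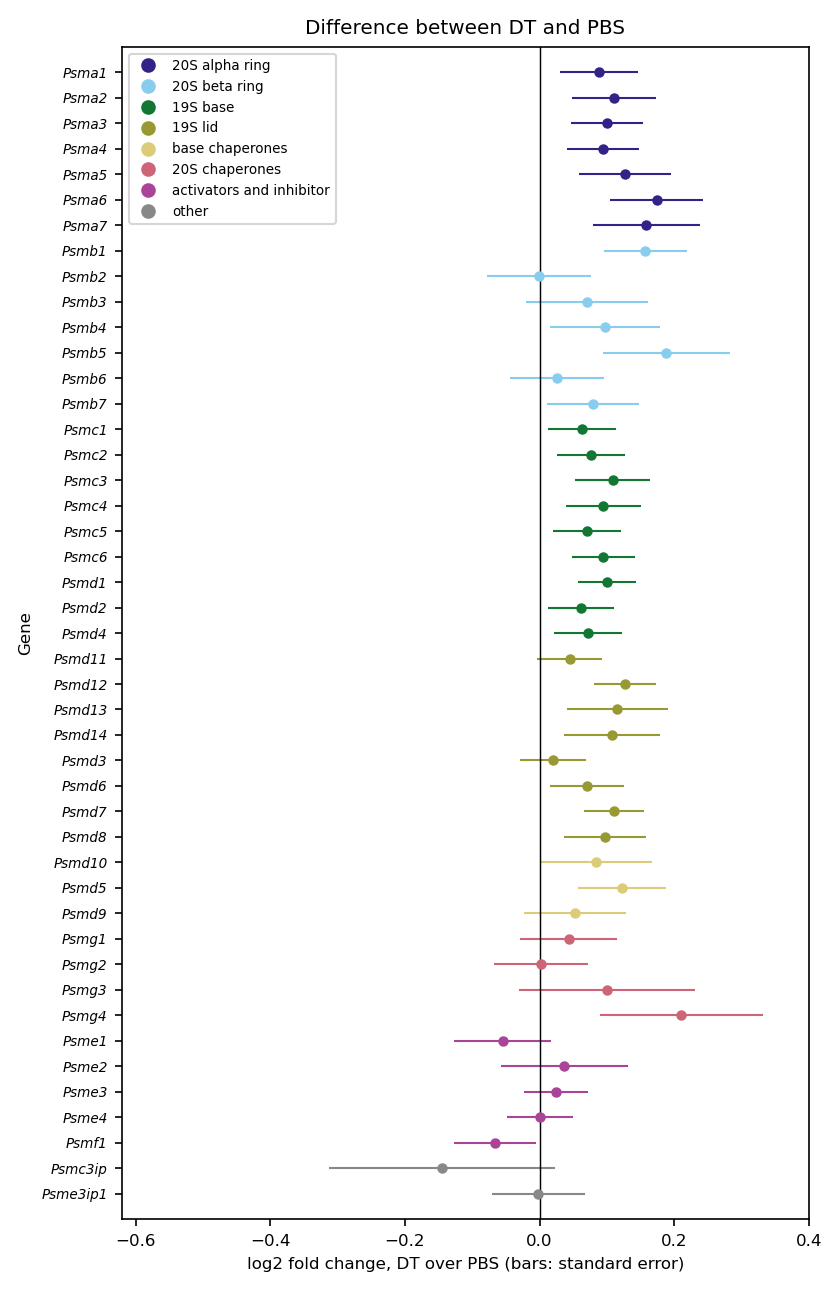
Log2 fold change of DT (6 mice) over PBS (5 mice) for each of the 45 expressed members, with the standard error of the limma fit as bars and the role as colour. Of the 31 26S subunits 30 lie right of 0, and no member passed the adjusted threshold.

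In the alpha ring all 7 subunits had positive log2 fold changes, with a median of 0.11 (0.061 without PBS 4) and a range of 0.088 to 0.17. Psma6 (ENSMUSG00000021024), which has the largest difference of the ring, had 1427, 1494, 1646, 1280 and 1729 normalized counts in the PBS mice. In the DT mice its lowest, median and highest values were 1588, 1692 and 1821. The lowest DT mouse lay above 3 of the PBS mice, while PBS 3 and PBS 5 lay within the DT range. The log2 fold change was 0.17 ± 0.069 (SE; limma, adjusted p = 0.343), and 0.12 without PBS 4.
Psma7 had 1730, 1918, 1948, 1554 and 2220 normalized counts after PBS and 1855, 2095 and 2280 as lowest, median and highest after DT (log2 fold change 0.16, limma adjusted p = 0.456; 0.094 without PBS 4). Only the highest DT mouse exceeded PBS 5. Psma5 had 829, 769, 906, 700 and 911 normalized counts after PBS and 826, 902 and 934 after DT (log2 fold change 0.13, limma adjusted p = 0.492; 0.071 without PBS 4). In both genes PBS 4 was the lowest of all mice, as it was in each of the 7 alpha subunits. Psma1, Psma2, Psma3 and Psma4, the remaining members of the ring, had log2 fold changes of 0.088 to 0.11 and adjusted p-values of 0.496 to 0.595.

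The beta ring had a median log2 fold change of 0.080, with 6 of 7 positive, and of 0.013 with 5 positive without PBS 4. Psmb1 (ENSMUSG00000014769), a subunit without an active site, had 1913, 2026, 2103, 1688 and 2182 normalized counts after PBS. Its lowest, median and highest values after DT were 2101, 2176 and 2359. All DT mice were above the PBS mean of 1983 ± 192 (SD, n = 5), and 3 were above the highest PBS mouse. The log2 fold change of 0.16 ± 0.062 (SE; limma, adjusted p = 0.331) was 0.10 without PBS 4. Psmb4, another subunit without an active site, had 1798, 1877, 2175, 1572 and 2342 normalized counts after PBS and 1986, 2041 and 2214 after DT, and here PBS 5 was the highest of all mice (log2 fold change 0.098, limma adjusted p = 0.696; 0.023 without PBS 4).

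The 3 active beta subunits differed in their values but not beyond the spread of the mice. Psmb5, with chymotrypsin-like activity and the target of proteasome inhibitors such as bortezomib, had 1304, 1300, 1644, 1135 and 1768 normalized counts after PBS. After DT it had 1484, 1591 and 1771 as lowest, median and highest. Of the PBS mice, 3 lay below this range and PBS 3 and PBS 5 within it. The log2 fold change was 0.19 ± 0.095 (SE; limma, adjusted p = 0.462), the largest of the 26S subunits, and 0.11 without PBS 4. Psmb7, with trypsin-like activity, had 1592, 1676, 1874, 1376 and 1823 normalized counts after PBS and 1703, 1739 and 1853 after DT (log2 fold change 0.080, limma adjusted p = 0.699; 0.013 without PBS 4).
Psmb6, with caspase-like activity, had 1687, 1761, 2034, 1485 and 1942 normalized counts after PBS and 1721, 1783 and 1911 after DT (log2 fold change 0.026, limma adjusted p = 0.923). Its sign turned without PBS 4, to -0.037. Psmb2, the only 26S subunit with a negative fold change and singled out after its values were seen, had PBS values of 1046, 1222, 1484, 1078 and 1347 and DT values of 1185, 1222 and 1281, with a log2 fold change of -0.00024. The DT mice were close together in the middle of the PBS mice.

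**Figure D3:**
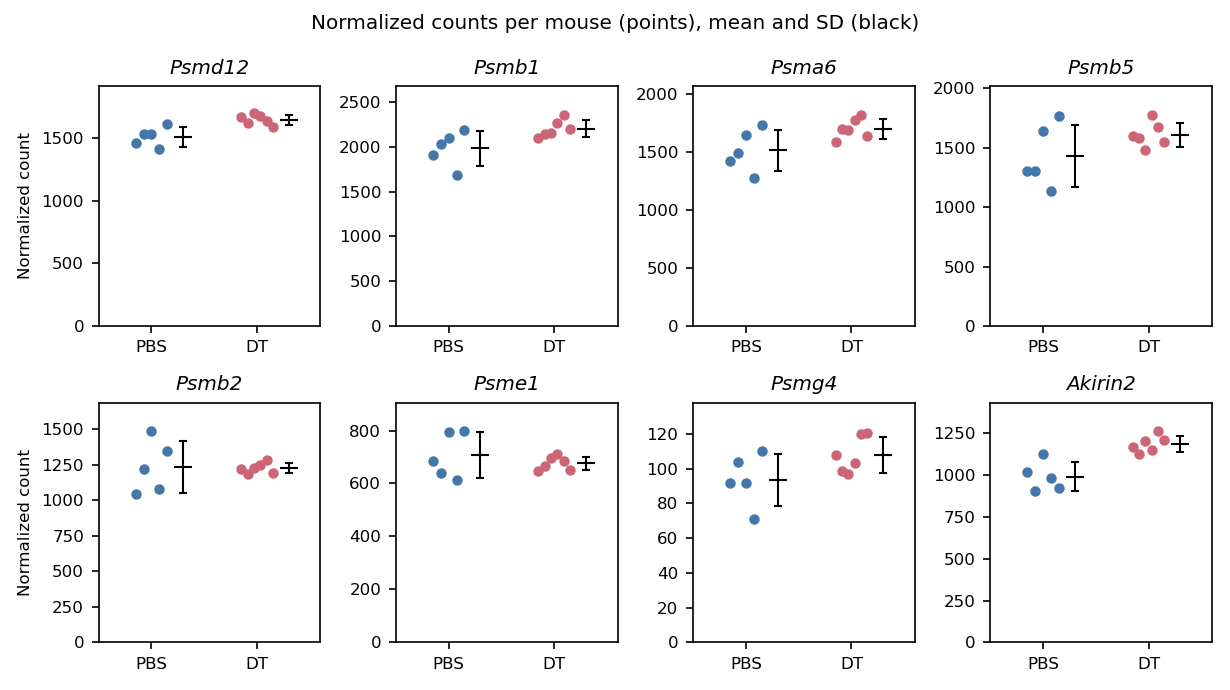
Normalized counts of each mouse (points, in the order of the mouse numbers) with the mean and SD of each group (black) for 7 members and for Akirin2, with the y axis from 0. Psmb2 was added after its values were seen. The groups overlap for each member, and for Akirin2 alone the lowest DT mouse (1125) lies above the highest PBS mouse (1124).

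All 9 subunits of the base had positive log2 fold changes, between 0.061 and 0.11, with a median of 0.076 (0.052 without PBS 4). Psmd1 (ENSMUSG00000026229), the scaffold of the base, had 2425, 2389, 2283, 2368 and 2540 normalized counts after PBS and 2444, 2597 and 2634 as lowest, median and highest after DT. It is the 26S subunit with PBS 3 as its lowest mouse, and 5 of 6 DT mice lay above the highest PBS mouse. The log2 fold change was 0.10 ± 0.043 (SE; limma, adjusted p = 0.380), and 0.096 without PBS 4. The ATPase Psmc6 had 1678, 1720, 1656, 1525 and 1656 normalized counts after PBS and 1651, 1785 and 1806 after DT, again with 5 of 6 DT mice above every PBS mouse (log2 fold change 0.095, limma adjusted p = 0.447).
The ATPase Psmc3 had 2100, 2160, 2364, 1967 and 2324 normalized counts after PBS and 2215, 2338 and 2484 after DT (log2 fold change 0.11, limma adjusted p = 0.467; 0.072 without PBS 4). PBS 3 and PBS 5 lay within the DT range and the other PBS mice below it. The other 6 were the ATPases Psmc1, Psmc2, Psmc4 and Psmc5, the ubiquitin receptor Psmd4 and the scaffold Psmd2, with adjusted p-values of 0.545 to 0.680.

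All 8 lid subunits were positive as well, with a median log2 fold change of 0.10 and a range of 0.020 to 0.13. Without PBS 4 the median was 0.052 and 7 of 8 were positive. Psmd12 (ENSMUSG00000020720), a structural subunit, had the smallest p of all members. It had 1459, 1533, 1537, 1412 and 1611 normalized counts after PBS and 1587, 1652 and 1698 as lowest, median and highest after DT. Only PBS 5 reached into the DT range. The log2 fold change was 0.13 ± 0.046 (SE; limma, adjusted p = 0.291), and Psmd12 was the member that stayed under the unadjusted threshold without PBS 4, with a log2 fold change of 0.10.
Psmd7 (ENSMUSG00000039067), the partner of the deubiquitinase Psmd14, had 2244, 2438, 2509, 2233 and 2377 normalized counts after PBS and 2483, 2538 and 2630 after DT (log2 fold change 0.11, limma adjusted p = 0.350). Here PBS 3 lay above the lowest DT mouse and the other PBS mice below it. Psmd8 had 3500, 3864, 4286, 3480 and 4362 normalized counts after PBS and 3999, 4147 and 4314 after DT (log2 fold change 0.097, limma adjusted p = 0.576; 0.058 without PBS 4). The PBS mice of Psmd8 lay on both sides of the narrow DT range. Psmd14 itself had a log2 fold change of 0.11 (limma adjusted p = 0.595), and Psmd3, Psmd6, Psmd11 and Psmd13 had adjusted p-values of 0.584 to 0.914.

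The chaperones showed no difference that passed the test, with a median log2 fold change of 0.084 for those of the base (0.068 without PBS 4) and 0.072 for those of the core (0.045 without PBS 4). Psmd5, which holds ATPases of the base before they join, had 640, 788, 726, 660 and 710 normalized counts after PBS and 695, 768 and 830 after DT (log2 fold change 0.12, limma adjusted p = 0.491). Psmd10, also known as gankyrin, had 218, 252, 257, 219 and 268 after PBS and 224, 256 and 290 after DT (log2 fold change 0.084, limma adjusted p = 0.754; 0.049 without PBS 4). Both ranges overlapped over most of their length. Psmd9 had 311, 247, 299, 311 and 327 after PBS and 294, 308 and 331 after DT (log2 fold change 0.052, limma adjusted p = 0.844), and its sign turned without PBS 2, to -0.015.
Of the chaperones of the core, Psmg4 had the largest log2 fold change of all members, 0.21 ± 0.121 (SE; limma, adjusted p = 0.527). Its values were 91.7, 104, 91.5, 71.0 and 110 normalized counts after PBS and 96.7, 105 and 121 after DT. It was 0.12 without PBS 4, and levels near 100 carry a larger counting error than those of the subunits. Psmg3 had 56.6, 89.4, 77.4, 65.6 and 77.6 after PBS and 70.5, 75.7 and 91.2 after DT (log2 fold change 0.10, limma adjusted p = 0.824; 0.065 without PBS 4). Psmg1 had 213, 218, 235, 212 and 237 after PBS and 205, 235 and 244 after DT (log2 fold change 0.043, limma adjusted p = 0.865; 0.026 without PBS 4). Psmg2 was at 0.0024.

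The activators and the inhibitor had a median log2 fold change of -0.027, with 3 of 6 positive, whereas the 31 26S subunits had a median of 0.095 with 30 positive. The 15 members outside the 26S particle had a median of 0.024 with 10 positive. Without PBS 4 these medians were -0.076 (1 positive), 0.056 (28 positive) and 0.0053 (8 positive). Psme3, the nuclear activator PA28 gamma, had 2055, 2150, 2082, 2084 and 2132 normalized counts after PBS and 2001, 2127 and 2368 after DT (log2 fold change 0.024, limma adjusted p = 0.888). Its PBS values were the tightest of all members, and its sign turned without DT 1, to -0.0052. Psme1, a subunit of the interferon-inducible activator PA28, had 685, 638, 796, 615 and 800 after PBS and 648, 676 and 712 after DT (log2 fold change -0.055, limma adjusted p = 0.823; -0.10 without PBS 4). Psmf1 had 424, 444, 458, 398 and 431 after PBS and 375, 412 and 445 after DT (log2 fold change -0.066, limma adjusted p = 0.731). Psme2 and Psme4 were at 0.037 and 0.0013, and both turned negative without PBS 4.

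**Figure D4:**
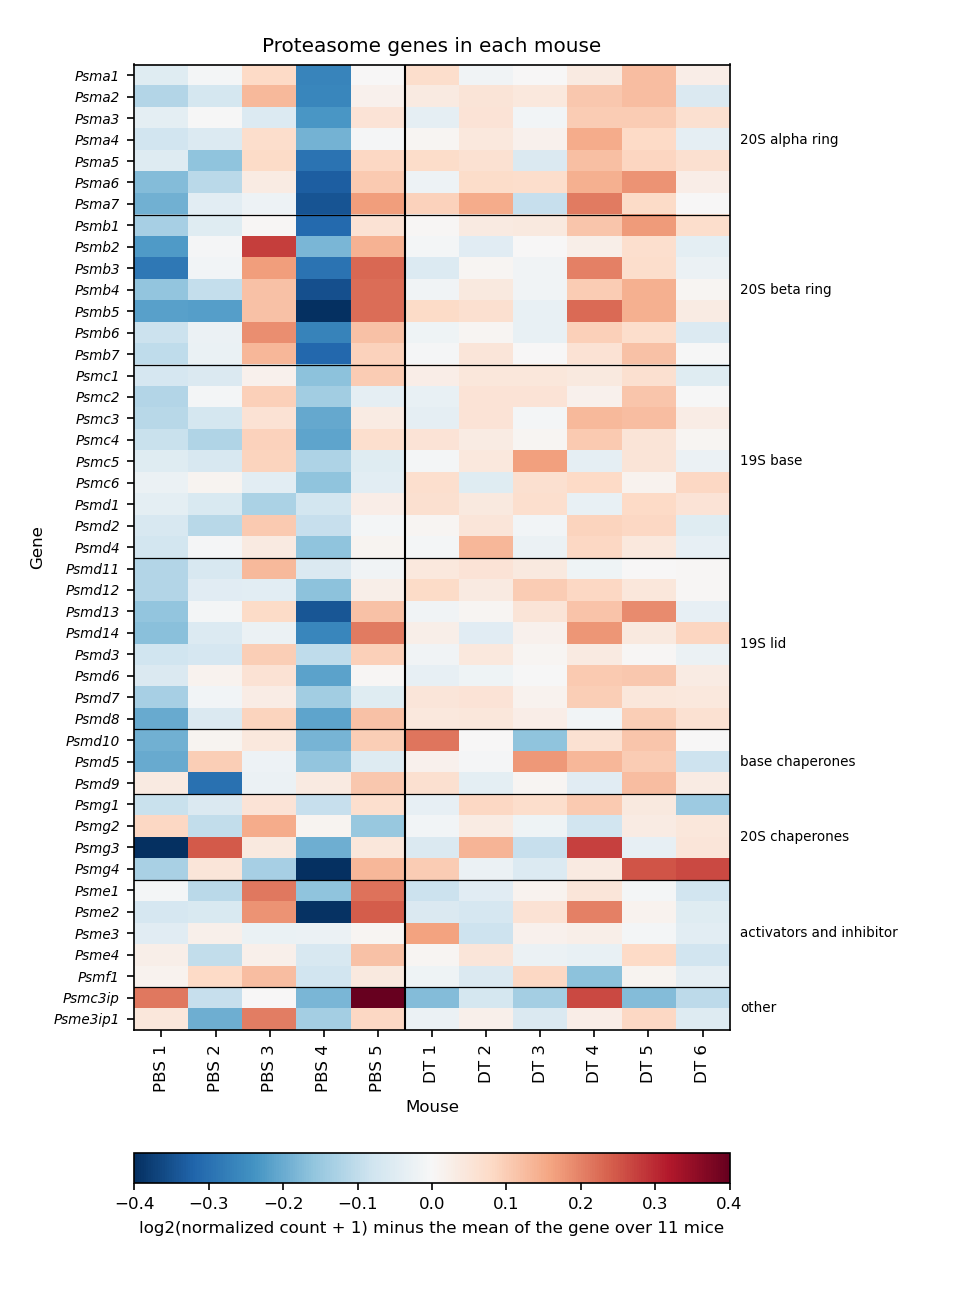
Colour gives log2(normalized count + 1) minus the mean of the gene over the 11 mice, for the 45 expressed members in rows by role and the mice in columns, with values past 0.4 drawn at the end of the scale. The column of PBS 4 is the lowest in 27 of the 31 26S subunits, and PBS 3 and PBS 5 lie near the DT mice.

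Summed over the 31 26S subunits, the normalized counts were 56412, 58594, 63767, 52943 and 63569 in the PBS mice. The DT mice had 61230, 62247 and 64610 as lowest, median and highest. PBS 3 and PBS 5 lay within the DT range and the other 3 PBS mice below it. The means were 59057 ± 4667 (SD, n = 5) and 62714 ± 1444 (SD, n = 6), which is 0.262% to 0.314% of all normalized counts after PBS and 0.298% to 0.314% after DT. PBS 4 and PBS 1 had 0 of 31 subunits above the gene's median over the mice, PBS 2 had 1, PBS 5 had 19 and PBS 3 had 21, and the DT mice had between 10 and 29. The lowest mouse was a PBS mouse for 31 of the 31 subunits, and for 58.8% of expressed genes.

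The PBS mice thus varied more than the DT mice. The SD of the log2 values was larger after PBS than after DT in 31 of 31 26S subunits, and in 69.3% of expressed genes and 77.3% of those at the level of the subunits. The median SD was 0.128 after PBS and 0.059 after DT for the 26S subunits, 0.165 and 0.119 for expressed genes and 0.112 and 0.072 for genes at the same level. Without PBS 4 the SD was larger after PBS in 26 of 31 subunits (71.1% of genes at the same level), with a median of 0.098. The median coefficient of variation was 8.59% after PBS and 4.08% after DT, where counting alone gives 2.47% and 2.37%. In 3 of the 31 subunits, Psmd3, Psmd7 and Psmd11, the DT mice varied no more than counting alone gives, and in 0 of 31 the PBS mice did. The difference in spread itself was not tested, since the subunits share their lowest mouse and the pattern was noticed in these data.

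**Figure D5:**
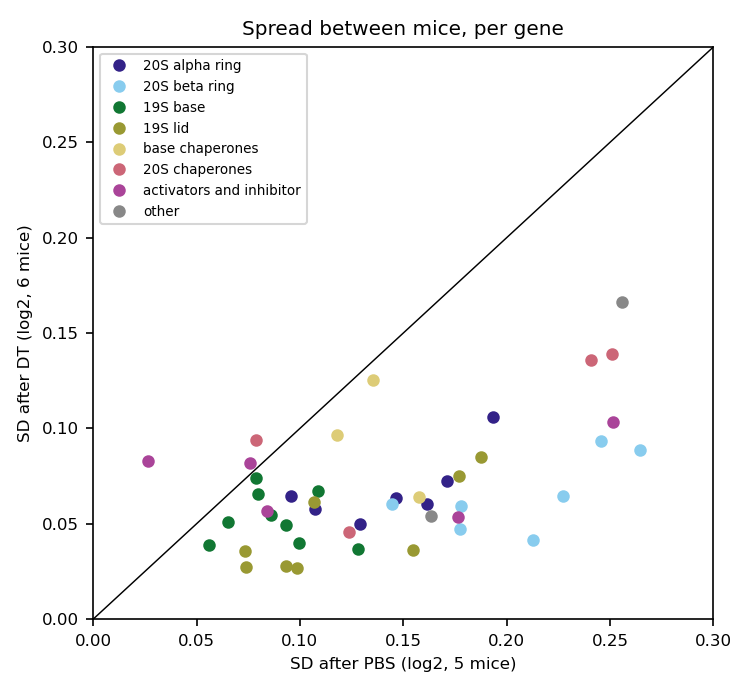
SD of log2(normalized count + 1) over 5 PBS mice (x axis) against that over 6 DT mice (y axis) for the 45 expressed members, with the role as colour and the line of equal SD. All 31 26S subunits lie below the line.

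The levels of other gene groups in the same mice were as follows. The 5 Langerhans cell markers (Cd207, Cd74, H2-Aa, H2-Ab1 and Itgax), all expressed and 0 of them past the test, summed to 1715, 1996, 4034, 1515 and 3100 normalized counts in the PBS mice and to between 1029 and 2233 in the DT mice. The PBS mice had the same order in this sum as in that of the 26S subunits, with PBS 3 highest and PBS 4 lowest. The DT mice did not: DT 5, with the highest sum of 26S subunits, had 1437. Most of the sum came from Cd74, H2-Ab1 and H2-Aa, with PBS means of 1361, 557 and 474 out of 2472. Cd207 had a PBS mean of 23.9 and did not follow this order, with 43.0 in PBS 5 and 32.2 in PBS 3. Genes whose symbol starts with Rpl or Rps and a digit, a pattern used for cytosolic ribosomal protein genes, took 3.56% in PBS 4. Their share was 4.10% to 5.05% in the other PBS mice and 4.34% to 4.80% in the DT mice. The 10 immediate early genes are induced rapidly by many stimuli. Their sum was 66260 in PBS 4, 26193 to 42499 in the other PBS mice and 70438 to 111693 in the DT mice. Of these 10, 9 were higher after DT at an adjusted p under 0.1 (limma), where 0.313% of all genes were. The exception was Fosb (limma, adjusted p = 0.118). Mitochondrially encoded transcripts took 1.63% to 4.14% after PBS and 1.34% to 2.24% after DT. Of 7 leukocyte markers 3 were expressed, and the sum of all was 180 to 333 after PBS and 111 to 261 after DT. The part of these values in the levels of the proteasome genes was not tested.

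A list of 34 other genes of the pathway was drawn up for this comparison, with earlier results of these data known. Of these, 33 had values, and 1 passed the test, Akirin2, higher after DT, where 0.558% of all genes passed. The list held ubiquitin genes and the enzymes that activate ubiquitin, shuttles, deubiquitinases, regulators, remaining subunits and the immunoproteasome. In it 6 genes were higher and 1 lower in limma at an unadjusted p under 0.05 (11.5% of all genes passed in either direction). In 4 the groups did not overlap (1.65% of all genes), and the median log2 fold change was 0.024. Of the 3490 genes at the level of the 26S subunits, 586 passed the unadjusted threshold and 104 had no overlap. Some listed genes, such as Nfe2l2 and Uba1, lie above that range of levels. Akirin2, which carries proteasomes into the nucleus, had 1017, 903, 1124, 984 and 922 normalized counts after PBS and 1125, 1186 and 1262 as lowest, median and highest after DT. All DT mice lay above all PBS mice, with PBS 3 next to the lowest DT mouse. The log2 fold change was 0.26 ± 0.059 (SE; limma, adjusted p = 0.0800). Its adjusted p ranged from 0.0265 to 0.454 over 19 alternatives and was under 0.1 in 8 of them. Single mice ended this call: it was lost without PBS 1 (0.152), PBS 2 (0.213), DT 1 (0.136), DT 2 (0.110), DT 3 (0.148), DT 4 (0.142), DT 5 (0.229) or DT 6 (0.193).

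The other genes of this list did not pass the test. Nfe2l2, the regulator of the antioxidant response, had 9283, 9235, 9298, 9162 and 8301 normalized counts after PBS and 9354, 10037 and 10679 after DT (log2 fold change 0.15, limma adjusted p = 0.259). Uba1, the main ubiquitin-activating enzyme, had 7796, 7073, 7726, 7585 and 7354 after PBS and 7844, 8209 and 8513 after DT (log2 fold change 0.13, limma adjusted p = 0.290). In both genes the groups did not overlap, by a small margin, as also in Ube3c, a ubiquitin ligase of the proteasome that was singled out after its values were seen (0.11, limma adjusted p = 0.344). Rps27a, which encodes ubiquitin fused to a ribosomal protein, had 10239, 11451, 9865, 8720 and 13408 after PBS and 11536, 12458 and 13551 after DT (log2 fold change 0.24, limma adjusted p = 0.302), and it passed the test without PBS 5 (0.32, limma adjusted p = 0.0553).
Nfe2l1, the factor that raises proteasome genes when the proteasome is inhibited, had 5414, 5454, 5838, 5470 and 5990 after PBS and 5493, 5622 and 5818 after DT. Its log2 fold change was 0.00073 (limma, adjusted p = 0.996), with a sign that turned in 8 of 19 alternatives (-0.0095 without PBS 4). Pomp, the maturation factor of the core, had 1769, 1813, 2069, 1465 and 2025 after PBS and 1810, 1895 and 2013 after DT (log2 fold change 0.065, limma adjusted p = 0.795; -0.012 without PBS 4). As in most core subunits, PBS 4 was the lowest mouse for Pomp.

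The immunoproteasome subunits were low and variable. Psmb9 had 90.5, 53.4, 110, 50.1 and 83.9 normalized counts after PBS and 36.3, 53.4 and 66.6 after DT, with a log2 fold change of -0.50 ± 0.210 (SE; limma, adjusted p = 0.371), the 1 gene of the list that was lower at the unadjusted threshold. Psmb8 had 56.6, 19.4, 96.6, 31.9 and 75.5 after PBS and 22.8, 46.4 and 62.3 after DT (log2 fold change -0.18, limma adjusted p = 0.892; 0.071 without PBS 3 and -0.32 without PBS 4). Psmb10 had 84.9, 74.8, 155, 79.2 and 129 after PBS and 92.9, 98.4 and 125 after DT (log2 fold change 0.019, limma adjusted p = 0.982; -0.065 without PBS 4). In each of the 3 genes PBS 3 was the highest mouse, which was also the mouse with the highest sum of Langerhans cell markers. PBS 3 had the highest sum of leukocyte markers as well (333), whereas Cd207 alone was highest in PBS 5. Relative to the beta subunit it replaces, Psmb9 amounted to 4.30% ± 1.09 of Psmb6 after PBS and 2.95% ± 0.606 after DT, Psmb8 to 3.76% ± 1.67 and 2.78% ± 0.902 of Psmb5, and Psmb10 to 6.18% ± 1.5 and 5.82% ± 0.720 of Psmb7 (SD, n = 5 and n = 6). These shares are of normalized counts and are not corrected for length, and their groups overlapped.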

How the data were processed

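Per the methods and labels, RNA of gingival epithelium was made into stranded polyA libraries. The authors trimmed the reads, aligned them with TopHat2, counted them per gene with HTSeq, left out genes with low sums and divided the counts by a DESeq2 size factor per mouse. The submitters' processing notes name TopHat2 2.1.1, cutadapt 2.10, HTSeq 2.01, DESeq2 1.36.0 and GRCm39, whereas the methods name GRCm38, so positions are given for promoter windows only. Each deposited value is a normalized count. The table lists 55414 genes, 36244 of them without a value. In all mice 100% of values were whole multiples of 1 read (tolerance 0.1 read), which gives the depth. Values after ± are the SD between mice for counts, levels per kb and shares. For log2 fold changes they are the SE of the limma fit.

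DT (6 mice) was compared with PBS (5 mice) on log2(normalized count + 1) with limma 3.58.1 in R 4.3.3, with an intensity trend, over 19170 genes, two-sided, with Benjamini-Hochberg adjustment and a threshold of 0.1. Fold changes on this scale understate changes of low genes. Libraries were taken as separate mice. The p-values set the difference of the group means against the spread between mice, taken as equal in both groups. Tests with edgeR or DESeq2 on recovered reads, planned as alternatives, were not run. The alternatives are named in the closing part, and the count at an unadjusted p, the count of SDs, the medians by role without PBS 4 and the exon length were added after seeing the data.

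Members and lists were chosen with earlier results of these data known. Genes named in the text were members past the threshold or without overlap (0 of each), the 3 with the smallest p in each of 7 roles, Psmb5, Psmb6 and Psmb7, and from the related list those past the threshold, the 4 with the smallest p, Nfe2l1, Pomp, Psmb8, Psmb9 and Psmb10. Main transcripts and exon unions came from GENCODE mouse release M21 (46 of 46 members matched).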

Additional observations from a re-analysis of the deposited data

Results flagged for a closer look

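Of 64 groups of values tested, 1 per group and named gene, 3 held a mouse far from the others by Dixon's criterion, and chance alone flags about 1 in 20 groups. For Psma5, DT 3 was the lowest DT mouse with 826 normalized counts, where the nearest DT mouse had 896 and the highest 934. For Nfe2l2, PBS 5 was the lowest PBS mouse with 8301 normalized counts, where the nearest had 9162 and the highest 9298. For Psmb10, DT 4 was the highest DT mouse with 124.5 normalized counts, where the nearest had 104.8 and the lowest 92.9. PBS 4, the lowest mouse in most 26S subunits, was not singled out in any named gene by this criterion.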

How the results depend on the processing

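The number of proteasome genes past the adjusted threshold was 0 under all 19 alternatives, which were other pseudocounts, a filter at a mean of 10, TMM scaling, quantile normalization, array weights, 2 replicate blocks and leaving out each mouse. Tests on counts with edgeR and DESeq2 had been planned on recovered reads and were not run. Depth limits the members outside the 26S particle most: in 8 of those 15 the DT mice, and in 3 the PBS mice, varied no more than counting alone gives. The median log2 fold change of the members lay between 0.070 and 0.096 under the 8 alternatives that kept all mice and between 0.049 (without PBS 4) and 0.106 (without PBS 3) without 1 mouse each. Of the expressed members, 86.7% were positive after quantile normalization and 93.3% after TMM scaling.

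Over all genes, 189 passed with array weights instead of 107, and between 27 and 259 without 1 mouse each: 29 without PBS 1, 40 without PBS 2, 170 without PBS 4, 259 without PBS 5, 61 without DT 1, 52 without DT 3, 50 without DT 4, 27 without DT 5 and 30 without DT 6. Of the genes of the related list, 0 passed under quantile normalization and between 0 and 2 without 1 mouse each. Members with an unadjusted p under 0.05 numbered 12 with array weights and between 1 and 16 without 1 mouse each. The 26S subunits with a larger SD after PBS numbered between 26 and 31 without 1 mouse each.

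The titles number the mice of both groups, and the library names give PBS 5 the number 6. The correlations of the deviations of same-numbered mice lay between -0.23 and 0.32 by title number. Of the PBS mice, 1 of 5 correlated best with its own number. Whether the numbers pair the mice cannot be settled from so few correlations. With a replicate block by title number, in which DT 6 has no partner, 35 genes, 0 related genes and 3 members (unadjusted) passed. With a replicate block by library number, in which DT 5 has no partner, 0 genes, 0 related genes and 0 members passed.

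For the 32 named genes, the direction was kept in 591 fits and turned in 17. Nfe2l1 turned under quantile normalization (-0.050) and the replicate block by library number (-0.0029), and lay between -0.013 and 0.023 without 1 mouse each. Without 1 mouse each, Psmb10 lay between -0.085 and 0.17, Psmd9 between -0.015 and 0.086, Psmb8 between -0.49 and 0.071, Psmb6 between -0.037 and 0.076, Pomp between -0.012 and 0.11 and Psme3 between -0.0052 and 0.043. The cause of these changes was not tested.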
